A study of Mus musculus with 8 samples.

Results

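UTP given to P2Y2 KO cells was compared with no treatment in 4 of the 8 libraries of the series: P2Y2 KO cADSC pools 1 and 2, untreated, against P2Y2 KO cADSC+UTP pools 1 and 2. All genes above 0.5 CPM (counts per 1000000 counts of the library) in at least 2 of the 8 libraries entered the comparison, which left 17529 of 52636 genes. The study cultured cADSC, plastic-adherent stromal cells from mouse cardiac adipose tissue, from WT and P2Y2 KO animals, and used UTP to ask which transcripts depend on the P2Y2 receptor. The cells were kept for 7 days in DMEM with 10% serum, and UTP at 100 µM was added every day to the treated cultures. The labels give the strain of both genotypes as C57BL/6J, whereas the methods describe the P2Y2 KO mice as CD1/C57BL/6J, and the mice were males and females of 12 to 16 weeks. The knockout is a property of the animal, not of 1 cell type, and all 4 libraries compared carry that label. Each library held RNA pooled from 2 cultures, with 2 pools per group. The p-values thus measured the spread between pools, estimated over all 4 groups, WT included.

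P2Y2 is a G protein-coupled receptor for ATP and UTP that acts through Gq, phospholipase C and intracellular calcium. UTP outside cells is broken down by ectonucleotidases to UDP, the ligand of P2Y6, and further to uridine, and P2Y4 is a second receptor for UTP in the mouse. Calcium entering the calcineurin pathway activates NFAT transcription factors, of which Rcan1 is a well-known target and a feedback inhibitor of calcineurin. Stromal cells taken from fat by adherence to plastic can carry macrophages along, and macrophages express several nucleotide receptors.

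The targeted gene was measured first. P2ry2 was at 13.99 and 15.54 CPM in the untreated and at 13.69 and 15.04 CPM in the UTP-treated libraries labelled P2Y2 KO, against 18.1 and 17.3 CPM untreated and 16.4 and 16.4 CPM with UTP in WT. All 4 libraries labelled P2Y2 KO were thus below the 4 WT libraries, but reads of the gene remained, and the log2 difference between the untreated groups of -0.26 did not pass the threshold (edgeR adjusted p = 0.0925). A count per gene does not show where in the gene the reads fell, so these values neither show nor exclude a deleted part, and every direction below is that of the libraries labelled P2Y2 KO (KO-labelled). Their totals were 20009605 to 20015454 scaled counts, a value of 0 allowed up to 0.15 CPM for counting error alone, and PCR copies could not be told from separate molecules.

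The same-numbered KO-labelled pools resembled each other in sex-linked transcripts. Xist, expressed from the inactive X chromosome of female cells, was at 0.10 and 215 CPM in untreated pools 1 and 2 and at 0.15 and 221 CPM in UTP-treated pools 1 and 2. Ddx3y, encoded on the Y chromosome, was at 90.8 and 54.4 CPM untreated and at 88.9 and 46.0 CPM with UTP. Pool 1 of both treatments thus had Xist at no more than 0.15 CPM and pool 2 held both transcripts, and the treatment was balanced over this difference. The level in each pool is therefore given below. The ratio of UTP over untreated within pool 1 and within pool 2 is given for the 6 called genes and for some other genes and lists. In WT, untreated pool 1 had 0 CPM of Ddx3y and 452 CPM of Xist, and the other 3 WT pools had 22.3 to 40.9 CPM of Ddx3y.

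After UTP, 6 genes were called higher and none lower in the KO-labelled cells (edgeR quasi-likelihood test on all 8 libraries without the pool number, Benjamini-Hochberg adjusted p under 0.05 over 17529 genes). They were Clec4n, Il1rn, Rcan1, Il20rb, Atp6v0d2 and Ccl5, and they made up 0.0342% of the genes tested. At an unadjusted p under 0.05, 580 genes (3.31%) were higher and 745 (4.25%) lower, while DESeq2 called 37 higher and 70 lower and limma called 6 higher and 0 lower. An edgeR fit that allowed for the pool number within each genotype called 17 higher and 31 lower. The 4 KO-labelled libraries alone gave 2 higher and 1 lower, so the direction of the calls depended on the fit. The median log2 fold change of all genes was 0.0032. The number of calls depended on single libraries: it was 2 when UTP-treated KO-labelled pool 1 was left out, 19 for UTP-treated pool 2, 3 for untreated pool 2, 144 when untreated WT pool 1 was left out and 155 for untreated WT pool 2, and 2 for either UTP-treated WT pool. Clec4n and Il1rn passed the threshold in all 19 alternatives computed, Rcan1 in 13, Il20rb and Atp6v0d2 in 12 each, and Ccl5 in 10 of 18.

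Clec4n encodes Dectin-2, a C-type lectin of myeloid cells that binds fungal mannans. It was at 14.1 and 9.85 CPM untreated and at 82.1 and 82.1 CPM with UTP. The log2 fold change was 2.78 ± 0.14 (SE from the fit of all 8 libraries, n = 2 pools per group, edgeR adjusted p = 0.000568). The ratio of UTP over untreated was 5.803 within pool 1 and 8.34 within pool 2. Il1rn encodes the interleukin-1 receptor antagonist, which blocks signalling by interleukin-1. Its level was 41.8 and 38.1 CPM untreated and 127 and 121 CPM with UTP, a log2 fold change of 1.64 ± 0.09 (edgeR adjusted p = 0.000568). The ratios within pools 1 and 2 were 3.05 and 3.17 for Il1rn. For Clec4n and Il1rn the lowest UTP-treated pool lay far above the highest untreated pool.

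Rcan1 was at 36.3 and 39.1 CPM untreated and at 64.5 and 66.1 CPM with UTP, a log2 fold change of 0.80 ± 0.06 (edgeR adjusted p = 0.00602). Il20rb encodes a subunit of the receptors for interleukins of the IL-20 group. It was lower in abundance, at 2.40 and 2.60 CPM untreated and 7.50 and 7.99 CPM with UTP, a log2 fold change of 1.64 ± 0.15 (edgeR adjusted p = 0.0138). Neither gene had overlapping groups, where 16.7% of all genes tested were higher without overlap. The ratios within pools 1 and 2 were 1.78 and 1.69 for Rcan1 and 3.13 and 3.08 for Il20rb.

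Atp6v0d2, a V-ATPase subunit of osteoclasts and macrophages that is needed for osteoclast fusion in mice, was at 25.3 and 21.3 CPM untreated and at 45.7 and 42.3 CPM with UTP (log2 fold change 0.92 ± 0.09, edgeR adjusted p = 0.0238). Ccl5, a chemokine that attracts T cells and monocytes, was at 0.40 and 0.40 CPM untreated and at 3.05 and 2.30 CPM with UTP (log2 fold change 2.73 ± 0.28, edgeR adjusted p = 0.0238). The untreated Ccl5 values are near the limit of detection, and its groups did not overlap (16.7% of all genes tested were higher without overlap). The ratios within pools 1 and 2 were 1.81 and 1.98 for Atp6v0d2 and 7.63 and 5.75 for Ccl5. Of the 6 genes, 5 also passed the threshold in WT, where 1.22% of all genes did; the exception was Il20rb, at 2.80 and 2.50 CPM untreated and 4.05 and 4.40 CPM with UTP there (edgeR adjusted p = 0.0849).

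**Figure D1:**
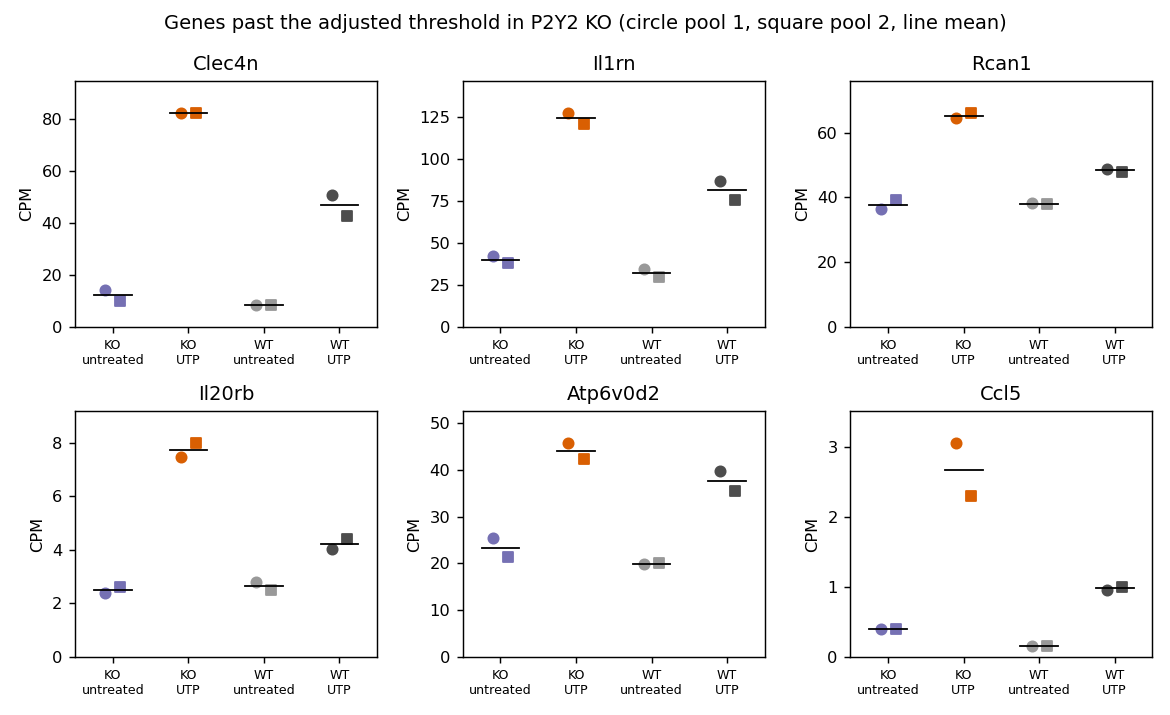
CPM of the 6 genes past the adjusted threshold in each of the 8 libraries (circles pool 1, squares pool 2, lines group means; the axes start at 0). In every panel both UTP-treated KO-labelled pools lie above both untreated ones, as for Clec4n at 82.1 and 82.1 against 14.1 and 9.85 CPM.

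Promoter windows are shown for the genes that rose, because Rcan1 is an NFAT target and the windows let the letters be read beside the values. RefSeq entries (GRCm38.p6, 250 bases before to 50 after a start, on the strand of the gene) were matched for 3 of the 6 genes, Il1rn, Rcan1 and Il20rb. Capitals mark the NFAT core GGAAA and the AP-1 motif TGANTCA on either strand; the PU.1 core GAGGAA, also searched on both strands, had no match in these windows. Il1rn and Rcan1 have windows at more than one start that do not overlap each other, and each is printed.
Il1rn, chr2:24336610-24336909, plus strand: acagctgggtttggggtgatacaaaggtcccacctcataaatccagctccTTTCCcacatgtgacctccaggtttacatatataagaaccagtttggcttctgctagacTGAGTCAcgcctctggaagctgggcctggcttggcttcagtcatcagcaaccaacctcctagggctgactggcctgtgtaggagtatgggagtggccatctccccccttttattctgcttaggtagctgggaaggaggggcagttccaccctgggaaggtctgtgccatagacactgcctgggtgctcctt
Il1rn, chr2:24345041-24345340, plus strand: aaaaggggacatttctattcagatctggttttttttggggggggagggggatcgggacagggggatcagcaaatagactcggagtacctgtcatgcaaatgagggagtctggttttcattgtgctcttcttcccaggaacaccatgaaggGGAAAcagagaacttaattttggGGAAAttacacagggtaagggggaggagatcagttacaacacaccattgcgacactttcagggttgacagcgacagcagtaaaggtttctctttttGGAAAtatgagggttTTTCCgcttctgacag
Rcan1, chr16:92466120-92466419, minus strand: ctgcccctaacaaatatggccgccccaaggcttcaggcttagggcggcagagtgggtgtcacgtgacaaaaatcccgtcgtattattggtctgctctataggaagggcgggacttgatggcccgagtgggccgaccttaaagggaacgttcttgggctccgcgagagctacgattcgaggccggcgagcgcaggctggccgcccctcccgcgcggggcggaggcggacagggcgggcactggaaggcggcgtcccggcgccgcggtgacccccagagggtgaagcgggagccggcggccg
Rcan1, chr16:92400029-92400328, minus strand: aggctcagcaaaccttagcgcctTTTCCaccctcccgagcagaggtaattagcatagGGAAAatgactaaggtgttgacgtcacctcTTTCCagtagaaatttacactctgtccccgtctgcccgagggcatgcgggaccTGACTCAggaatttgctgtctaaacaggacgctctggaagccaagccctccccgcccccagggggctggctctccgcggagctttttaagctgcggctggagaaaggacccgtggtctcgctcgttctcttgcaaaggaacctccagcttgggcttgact
Il20rb, chr9:100486424-100486723, minus strand: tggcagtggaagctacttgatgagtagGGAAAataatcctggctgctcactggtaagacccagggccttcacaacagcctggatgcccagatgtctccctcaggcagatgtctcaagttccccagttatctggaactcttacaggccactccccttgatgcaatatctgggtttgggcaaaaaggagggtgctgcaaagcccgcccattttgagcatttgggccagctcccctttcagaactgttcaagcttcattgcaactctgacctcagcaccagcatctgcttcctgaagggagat
The first Rcan1 window, at the upstream start, held none of the motifs, and the second held 3 NFAT cores and 1 AP-1 motif. Il1rn held 1 NFAT core and 1 AP-1 motif in the first window and 4 NFAT cores in the second, and Il20rb held 1 NFAT core. Of 32851 promoter windows in the table, 61.3% held the NFAT core, 7.81% the AP-1 motif and 28.3% the PU.1 core, so the NFAT core is a common run of letters. A match is a description of the sequence, and the deposited gene counts do not show which start was used.

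By the ratio of mean CPM, 152 genes were above 2 and 83 below 0.5 among the 17263 genes whose mean exceeded 0.5 CPM untreated or with UTP (0.88% and 0.481%). Both ratios of same-numbered pools were past the bound for 46 higher and 34 lower genes (0.266% and 0.197%). Without 1 pool these numbers moved: 257 and 121 without untreated pool 1, 243 and 185 without untreated pool 2, 127 and 155 without UTP-treated pool 1, and 304 and 186 without UTP-treated pool 2. Over 14172 genes of at least 2 CPM, the log2 ratios 1 over 1 and 2 over 2 had a correlation of 0.513 across genes, which are not independent replicates and share the 4 libraries' depth. Both ratios were on the same side of 1 for 61.6% of these genes.

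**Figure D2:**
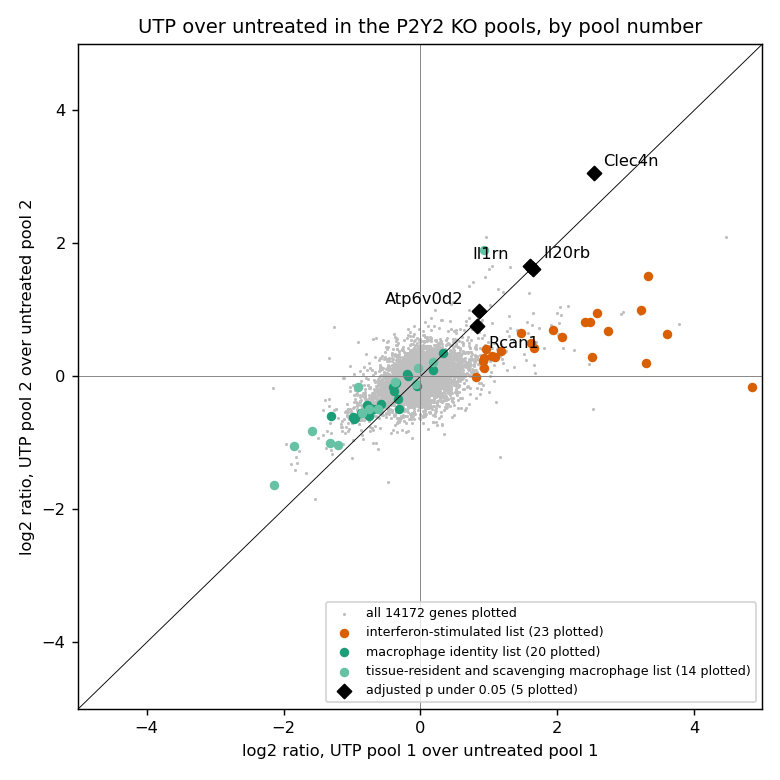
Log2 ratio of UTP over untreated in pool 2 against that in pool 1 for 14172 genes (grey), with 3 gene lists coloured and 5 of the 6 called genes as diamonds (Ccl5 is below 2 CPM). The called genes lie near the diagonal, and the 23 interferon-stimulated genes all lie below it.

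Interferon-stimulated genes were higher with UTP in the KO-labelled cells, but mostly in 1 pool. These genes are induced when interferon binds its receptor and are known for antiviral defence. All 23 genes of the list had a log2 fold change above 0 (median 1.35), as did 51% of all genes tested, 18 had an unadjusted p under 0.05 (3.31% of all genes were higher at it), and none passed the adjusted threshold. Their summed level was 488 and 594 CPM untreated and 1434 and 820 CPM with UTP. The level was higher in UTP-treated pool 1 than in UTP-treated pool 2 for all 23 genes, and the ratio 1 over 1, with a median of 3.82 and a range of 1.76 to 28.8, was above the ratio 2 over 2, with a median of 1.34 and a range of 0.894 to 2.84, for each of them. Without UTP-treated pool 1 the median log2 fold change of the list was 0.53, and without UTP-treated pool 2 it was 1.74.

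Single members showed the same split. Rsad2, which encodes the antiviral enzyme viperin, was at 1.95 and 3.05 CPM untreated and at 23.6 and 4.75 CPM with UTP. Irf7, a transcription factor that amplifies interferon production, was at 15.7 and 23.8 CPM untreated and at 83.3 and 42.2 CPM with UTP. Ifi44 was at 2.30 and 3.70 CPM untreated and at 23.1 and 10.5 CPM with UTP, and was the 1 gene of the list with both same-numbered ratios above 2. Cxcl10, an interferon-induced chemokine of the CXC and CX3C list and not of this one, was at 1.90 and 2.05 CPM untreated. With UTP it was at 26.0 and 3.55 CPM. The groups did not overlap for 21 of the 23 genes, where 16.7% of all genes tested were higher and 21.1% lower without overlap. In WT the sums were 336 and 307 CPM untreated and 342 and 836 CPM with UTP, and there UTP-treated pool 2 was above UTP-treated pool 1 for all 23 genes.

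**Figure D3:**
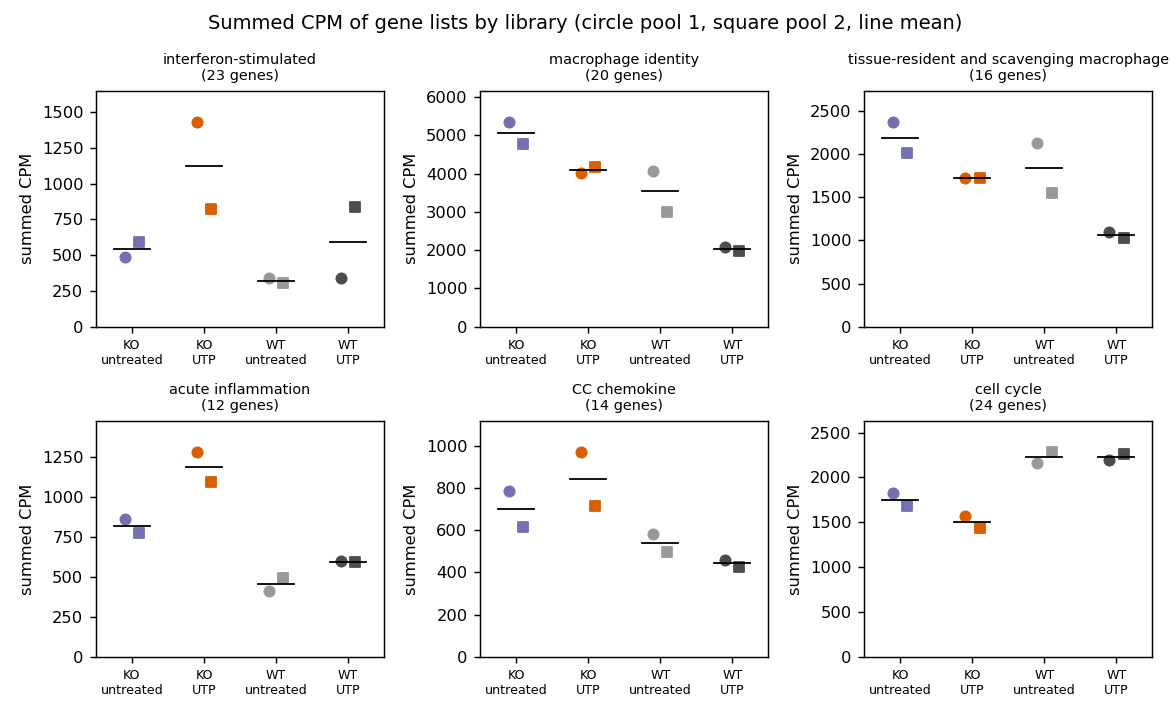
Summed CPM of 6 gene lists in each of the 8 libraries (circles pool 1, squares pool 2, lines group means; the axes start at 0). The interferon-stimulated sum is highest in UTP-treated KO-labelled pool 1 at 1434 CPM, and the macrophage identity sum is lower in both UTP-treated KO-labelled pools, at 4028 and 4173 CPM, than in both untreated ones, at 5360 and 4778 CPM.

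Most macrophage identity transcripts were at lower levels with UTP, but none passed the adjusted threshold. The label of the cells names stem cells. The paper reports, from flow cytometry it does not show, that most cultured cells of both genotypes carried mesenchymal markers, with or without UTP. Mesenchymal transcripts were abundant (Col1a1 at 3647 to 3871 CPM in the 4 KO-labelled libraries), yet macrophage markers were present in all of these libraries. Of 20 macrophage identity genes, 18 had a log2 fold change below 0 (49% of all genes did), and 11 were lower and none higher at an unadjusted p under 0.05 (4.25% and 3.31% of all genes), with a median log2 fold change of -0.44. The 2 identity genes above 0 were Cybb and Cd14. Cybb was at 155 and 146 CPM untreated and at 194 and 186 CPM with UTP. Cd14 was at 122 and 96.2 CPM untreated and at 138 and 103 CPM with UTP, with overlapping groups. A change in the number of macrophages and a change of expression within them cannot be told apart in bulk samples, and neither was tested. Csf1r, the receptor for the growth factor CSF1, was at 552 and 533 CPM untreated and at 327 and 354 CPM with UTP. C1qa, C1qb and C1qc encode the chains of complement C1q, and C1qa was at 266 and 222 CPM untreated and at 137 and 143 CPM with UTP. Cd68 was at 216 and 216 CPM untreated and at 134 and 154 CPM with UTP. Lyz2, an abundant lysozyme gene, was at 1726 and 1588 CPM untreated and at 1504 and 1636 CPM with UTP, and its groups overlapped.

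A list of tissue-resident and scavenging macrophage genes was split. Of 16 genes tested, 12 had a log2 fold change below 0 and 4 above 0 (49% and 51% of all genes), with a median of -0.59, and at an unadjusted p under 0.05, 8 were lower and 1 higher (4.25% and 3.31% of all genes). Siglec1 was at 75.5 and 66.8 CPM untreated and at 32.7 and 32.7 CPM with UTP. Mrc1, the mannose receptor, was at 332 and 194 CPM untreated and at 110 and 109 CPM with UTP, and Cd163, the receptor for haemoglobin bound to haptoglobin, was at 10.4 and 7.20 CPM untreated and at 2.90 and 3.497 CPM with UTP. Stab1 was at 274 and 153 CPM untreated and at 110 and 76.3 CPM with UTP. In each of these genes both UTP-treated pools were below both untreated pools, as in 11 of the 16 genes and in 21.1% of all genes tested. Marco, a scavenger receptor for bacteria and particles, went the other way, at 32.6 and 18.8 CPM untreated and at 62.2 and 70.5 CPM with UTP. None of these passed the adjusted threshold. With DESeq2, 5 of the 20 identity genes and 5 of the 16 scavenging genes did, against 107 of all 17529 genes tested.

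Other myeloid genes were split in direction. Itgax, the integrin CD11c, was at 51.2 and 46.0 CPM untreated and at 80.9 and 78.2 CPM with UTP (edgeR adjusted p = 0.0677). Clec4e, the lectin Mincle, was at 10.3 and 11.7 CPM untreated and at 32.2 and 22.7 CPM with UTP. Spp1, osteopontin, was at 786 and 470 CPM untreated and at 1580 and 1435 CPM with UTP, and Gm42793 lies on the same strand over Spp1, so their reads may be shared. Acod1, which makes itaconate in activated macrophages, was at 0.95 and 1.45 CPM untreated and at 20.9 and 6.20 CPM with UTP. The toll-like receptor Tlr7 was at 47.0 and 41.6 CPM untreated and at 22.5 and 27.2 CPM with UTP. Ms4a6b, Ms4a6c, Fgd2, Cd244 and Nxpe5 were at less than 0.5 times their untreated level in both same-numbered pools, from 0.257 to 0.492. Fcna, a ficolin of macrophages, was at 39.7 and 33.9 CPM untreated and at 18.6 and 19.99 CPM with UTP. Fcnaos overlaps it on the opposite strand, as BE692007 does Ms4a6c and Ly9 does Cd244. So do Nt5dc2 and Stab1, Hmgxb3 and Csf1r, Phrf1 and Irf7, Art3 and Cxcl10, Med12l and P2ry13, and Gm42802 and Pdgfra. The strand setting of the counting is not given in the sources used here, so the values of all these genes are uncertain.

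All 12 acute inflammation genes tested had a log2 fold change above 0 (median 0.45), as did 51% of all genes, and 8 had an unadjusted p under 0.05 (3.31% of all genes were higher at it), but none passed the adjusted threshold. Saa3, an acute phase serum amyloid, was at 191 and 135 CPM untreated and at 442 and 327 CPM with UTP. Tnfaip3, an inhibitor of NF-kB signalling, was at 18.2 and 16.04 CPM untreated and at 34.9 and 22.3 CPM with UTP. Of 14 CC chemokines, 6 were higher at an unadjusted p under 0.05 (3.31% of all genes), Ccl5 alone past the adjusted threshold (0.0342% of all genes), with a median log2 fold change of 0.43, which was 0.21 without UTP-treated pool 1. Ccl2 was at 212 and 198 CPM untreated and at 347 and 220 CPM with UTP. Ccl12 was at 17.2 and 11.5 CPM untreated and at 12.7 and 6.35 CPM with UTP, with overlapping groups. Among 11 CXC and CX3C chemokines, 4 were higher and none lower at an unadjusted p under 0.05 (3.31% and 4.25% of all genes) and none passed the adjusted threshold. Cxcl5 was at 39.7 and 25.7 CPM untreated and at 79.2 and 36.8 CPM with UTP, with overlapping groups.

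All 24 cell cycle genes had a log2 fold change below 0 (median -0.19), as did 49% of all genes tested, 11 of them at an unadjusted p under 0.05 (4.25% of all genes were lower at it), and none passed the adjusted threshold. Mki67, the proliferation marker Ki-67, was at 295 and 272 CPM untreated and at 221 and 206 CPM with UTP. Mcm5, a subunit of the replicative helicase, was at 84.7 and 75.2 CPM untreated and at 62.4 and 61.5 CPM with UTP. The groups of both genes did not overlap, and 14 of the 24 genes and 21.1% of all genes tested were lower without overlap. The ratios within pools were 0.749 and 0.758 for Mki67 and 0.736 and 0.817 for Mcm5.

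Nucleotide receptors and enzymes were examined because UTP and its products act on them. P2ry4 was at 0 in the 4 KO-labelled libraries, which allows up to 0.15 CPM in each. P2ry6, the UDP receptor, was at 41.0 and 34.3 CPM untreated and at 23.3 and 23.9 CPM with UTP (edgeR adjusted p = 0.419). Its groups did not overlap, where 21.1% of all genes tested were lower without overlap. The paper states, without showing the data, that it did not detect P2Y6 in cADSC, which differs from these P2ry6 values. P2ry13, a receptor for ADP, was at 1.60 and 1.35 CPM untreated and at 0.30 and 0.65 CPM with UTP. Of 16 receptors tested, 3 were lower and none higher at an unadjusted p under 0.05, against 4.25% and 3.31% of all genes. Enpp1, an ectoenzyme that hydrolyses nucleoside triphosphates, was at 17.3 and 17.4 CPM untreated and at 10.4 and 9.84 CPM with UTP (edgeR adjusted p = 0.0864). Upp1, uridine phosphorylase, was at 0.65 and 0.80 CPM untreated and at 1.499 and 1.40 CPM with UTP. In the calcineurin and NFAT list of 13 genes, Rcan1 was the only one past the adjusted threshold (0.0342% of all genes were called higher). Of the 13 genes, 10 had a log2 fold change below 0 (49% of all genes did), with a median of -0.07. At an unadjusted p under 0.05, 1 was higher and 2 were lower (3.31% and 4.25% of all genes). Nfatc2 was at 15.6 and 11.4 CPM untreated and at 6.35 and 5.30 CPM with UTP.

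Of 15 mesenchymal progenitor genes, 2 were higher at an unadjusted p under 0.05 (3.31% of all genes): Ly6a (Sca-1), at 154 and 155 CPM untreated and 221 and 194 CPM with UTP, and Pdgfra, at 667 and 627 CPM untreated and 836 and 735 CPM with UTP. Among 21 collagens the median log2 fold change was 0.0042, and Col1a1 was at 3756 and 3647 CPM untreated and at 3871 and 3668 CPM with UTP. Acta2, smooth muscle actin, was at 1192 and 1847 CPM untreated and at 1252 and 1950 CPM with UTP, so that it followed the pool number and not the treatment. All 11 adipocyte and adipogenesis genes tested had a log2 fold change below 0 (median -0.25), as did 49% of all genes, and none had an unadjusted p under 0.05. Of 22 angiogenic genes 4 were higher and 2 lower at an unadjusted p under 0.05 (3.31% and 4.25% of all genes), among them Apln at 41.2 and 40.5 CPM untreated and 52.7 and 53.4 CPM with UTP. No gene of the mesothelial, epithelial, Schwann cell, endothelial, B cell, T and NK cell, MHC class II, immediate early or glycolysis lists had an unadjusted p under 0.05. Tg, thyroglobulin, was at 69.5 and 77.9 CPM untreated and at 46.3 and 45.5 CPM with UTP, against 0.80 to 1.149 CPM in the WT libraries; Sla lies within it on the opposite strand, at 11.3 to 14.8 CPM in the KO-labelled libraries.

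**Figure D4:**
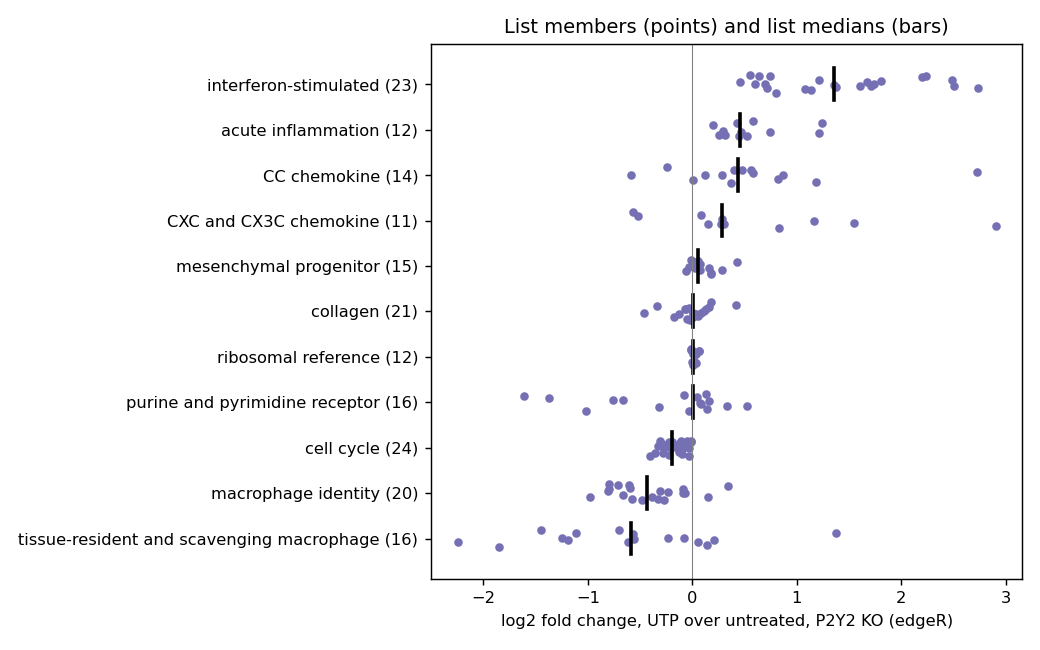
Log2 fold change of UTP over untreated in the KO-labelled cells (edgeR) for the tested members of 11 lists (points) with list medians (bars). The interferon-stimulated median is 1.35, the tissue-resident and scavenging macrophage median is -0.59 with Marco alone above 1, and the collagen and ribosomal medians are near 0.

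The effect of UTP was then set against that in WT, which shares no library with it. No gene passed the adjusted threshold for the difference between the effects (edgeR), and 922 genes (5.26%) had an unadjusted p under 0.05, 470 with the KO-labelled effect above the WT effect (2.68%) and 452 below it (2.58%). DESeq2 called 6 genes, limma none, and edgeR without the second untreated WT pool 273. Among the 20 macrophage identity genes, the log2 fold change was above that of WT for all 20, 14 of them at an unadjusted p under 0.05 (2.68% of all genes). The share of all genes with an effect above that of WT was not computed. The list's median was -0.44 against -1.08 in WT. C1qa had a log2 fold change of -0.79 against -1.68 in WT (difference 0.88 ± 0.15, SE), and Siglec1 of -1.11 against -2.35 (difference 1.24 ± 0.24, SE), both at an edgeR adjusted p of 0.837 for the difference. The untreated WT pools differed from each other in these genes, with a summed level of 4075 and 2997 CPM, and the part of this in the difference was not tested.

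Rcan1 and Marco were among the 10 genes with the lowest p for this difference. Rcan1 had a log2 fold change of 0.80 in the KO-labelled cells and 0.35 in WT (difference 0.45 ± 0.09, SE), where it was at 38.1 and 37.8 CPM untreated and at 48.8 and 47.9 CPM with UTP. Marco had a log2 fold change of 1.38 against -0.39 in WT (difference 1.77 ± 0.36, SE), and neither difference passed the threshold (edgeR adjusted p = 0.837 for both). Of the 24 cell cycle genes, 8 had an unadjusted p under 0.05 with the KO-labelled effect below that of WT, against 2.58% of all genes. The median log2 fold change of this list in WT was 0.02. For Clec4n the difference of the effects was 0.29 ± 0.21 (SE), also at an edgeR adjusted p of 0.837.

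**Figure D5:**
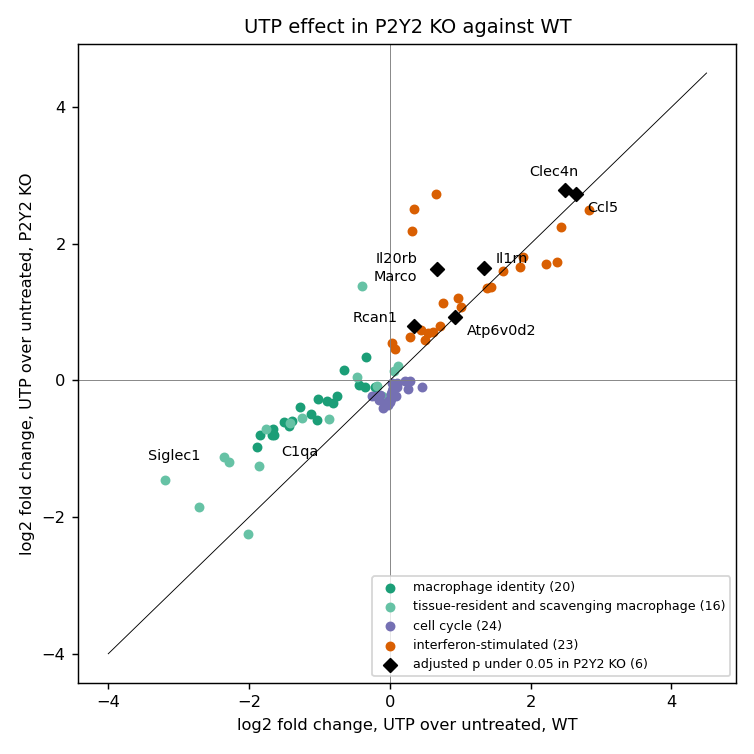
Log2 fold change of UTP over untreated in the KO-labelled cells against that in WT for 4 lists and the 6 called genes, with the line of equal effects. All 20 macrophage identity genes lie above the line, and Marco is at 1.38 in the KO-labelled cells and -0.39 in WT.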

How the data were processed

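Stranded mRNA libraries were sequenced from both ends, 100 bases each. Trimmomatic (trimming), STAR (alignment to GRCm38.p4, mm10) and HTSeq (counts for Ensembl 87 genes) were the tools of the authors; the versions and the strand setting are not given in the sources used here. The deposited values are estimated counts, since each library was multiplied by 1 factor (0.9084 to 1.07527) to a common total and rounded up, and 18599868 to 22018287 counts stood behind each. In untreated pool 1 and UTP-treated pool 2 of P2Y2 KO the lowest value above 0 is 2, so that levels of a few counts are coarse. The ratio columns hold the authors' own comparisons and were not used. Names turned into dates (15) were restored from gene identifiers.

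Testing used edgeR 4.0.16 (R 4.3.3) on genes with over 0.5 CPM in 2 or more libraries (TMM, quasi-likelihood F test, 4 groups, 4 residual degrees of freedom), adjusted by Benjamini-Hochberg and called under 0.05. Exact permutation of 2 pools against 2 goes no lower than p = 0.333. Log2 fold changes are given with standard errors. Genes were named where they passed the threshold, where they were among the 15 higher and 15 lower with the lowest p (at least 2 CPM, log2 size of at least 0.5, no overlap), among the leading members of a list, among the nucleotide receptors, among the 10 genes leading the genotype difference by p, where the paper names them, or where they passed with a block for the pool number. The members, the 40 lists and this rule were chosen with earlier results of these data known. Alternatives were DESeq2 1.42.0, limma 3.58.1, library size in place of TMM, other minimums, a bound of 1.5-fold, a replicate block, each library left out and the P2Y2 KO libraries alone; counts with the scaling undone were added after seeing the data. Promoter sequences are from RefSeq (GRCm38.p6).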

Additional observations from a re-analysis of the deposited data

How the results depend on the processing

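Of 78 genes followed through the alternatives, no fold change in the KO-labelled cells changed its sign in 1476 recomputed values, 28 calls were lost and 222 were gained. The 6 calls became 107 with DESeq2 (37 higher, 70 lower), 319 with no minimum, 3 in the P2Y2 KO libraries alone and 2 against a bound of 1.5-fold, and 2 to 155 with 1 library left out. Library size, a minimum of 2 CPM, limma and the scaling undone each gave 6. DESeq2 gave Ccl5 no adjusted p, and it was left out there. With a replicate block, the number within each genotype, 48 genes were called (17 higher, 31 lower) and all 6 calls were among them, and with 1 effect of the number over both genotypes 6 were. Deviations of same-numbered pools had a correlation across genes of 0.451 in P2Y2 KO and 0.0287 in WT; the labels pair no pools, so the number is only shared. The difference between genotypes gave 6 calls with DESeq2, 28 with no minimum, 0 with the block and 0 to 273 with 1 library left out. The fold change rule gave 235 genes, and 127 with the minimum in both conditions, 6395 with none, 109 with it in each library, 80 with both same-numbered ratios, 70 with 1 CPM added and 282 to 490 with 1 library left out. Medians with 1 library left out were -0.52 to -0.37 for macrophage identity, -0.83 to -0.38 for scavenging genes, 0.21 to 0.68 for CC chemokines, 0.53 to 1.74 for interferon-stimulated genes, 0.30 to 0.65 for acute inflammation and -0.24 to -0.15 for cell cycle, the last being -0.20 with library size. The genes called were 5, 5, 3 and 1 with DESeq2 in the macrophage identity, scavenging, acute inflammation and cell cycle lists, 2, 4 and 1 with the replicate block in the first 3, and 0 to 10, 0 to 6, 0 to 2 and 0 to 4 with 1 library left out, with 0 to 1 for CC chemokines. Why these counts moved was not tested. The 78 genes were named from these same libraries, which the alternatives use again, so their unchanged signs are no independent support. Values under about 0.5 CPM rest on 10 scaled counts or fewer.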
